A study of Mus musculus with 6 samples.

Results

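The genes described here are 10 genes of blood vessel endothelium: Cdh5, Esam, Cldn5, Pecam1, Icam2, Tek, Tie1, Eng, Egfl7 and Emcn. Their proteins hold endothelial cells together or mark their surface, except that of Egfl7, which is secreted into the matrix. They were chosen by name from the 55487 genes of the deposited count table, and each name matched 1 row. Expression was measured by poly(A) RNA-seq in 6 libraries of mouse cells that had been differentiated from embryonic stem cells for 4 days, 3 of them labelled Ts1Cje and 3 wild-type. The Ts1Cje chromosome carries an extra copy of the distal part of mouse chromosome 16 and is used to model Down syndrome. In both genotypes the stem cells were grown in serum replacement with LIF and then given VEGF, activin A, BMP-4 and FGF2, to make primitive macrophage progenitors, the first macrophage-forming blood cells of the embryo. The labels number the samples of each genotype by lot and do not say how many stem cell lines they came from, whether the lots are separate cultures, or whether cells were sorted. The p-values therefore measure the spread between these libraries, which may be technical, and genotype cannot be told apart from the cell line.

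Endothelium and the first blood cells arise together from mesoderm that carries the VEGF receptor encoded by Kdr. As such cells become endothelial, they assemble adherens junctions around VE-cadherin and tight junctions around claudin-5 and ESAM. They also carry the adhesion molecules PECAM1 and ICAM2, the angiopoietin receptor TEK with its relative TIE1, and the TGF-beta and BMP9 co-receptor endoglin. In the yolk sac, endothelium with these proteins gives rise to blood cells, and several of them stay on early blood cells and platelets. PECAM1 is also known on mouse embryonic stem cells.

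The libraries held 16577065 to 19010856 counts. Of the genes tested with edgeR's quasi-likelihood test, 43.8% passed an adjusted p of 0.05 in either direction, 20.5% lower and 23.3% higher in Ts1Cje. Their median log2 fold change was −0.01. Of 12 macrophage and myeloid genes, Ptprc, Cx3cr1 and Fcgr1 had 0 counts in all 6 libraries and Adgre1 had 1 count in total. Csf1r, the receptor gene of the macrophage growth factor, had 245 to 296 counts in wild-type and 268 to 385 in Ts1Cje, and Cd68 had 70 to 135 and 127 to 183. The summed level of the 12 ran from 17.9 to 23.9 CPM in wild-type and from 26.5 to 29.5 CPM in Ts1Cje. Wild-type replicate 1 was lower than replicates 2 and 3 in the tested genes described here, and each call that turns on it is given without it. Among genes of primitive red cells Hba-x and Hbb-y had 0 counts, Gata1 was higher in Ts1Cje (5 to 14 counts against 36 to 89), and Epor (70 to 102 against 32 to 65) did not pass. Among platelet genes Pf4, Ppbp, Gp1bb and Gp9 had 0 counts. Of the 3 tested, Itga2b (110 to 225 against 42 to 58) and Gp1ba (38 to 74 against 11 to 28) were lower in Ts1Cje and Nbeal2 higher (141 to 275 against 561 to 815). Levels below are CPM, counts scaled to library size with TMM factors, unless they are named as TPM, the authors' values scaled to gene length as well.

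Of the 10 genes, 8 had enough counts to be tested, and 7 of the 8 were lower in Ts1Cje, where 20.5% of all tested genes were. Cdh5, Esam, Pecam1, Icam2, Tie1, Eng and Egfl7 fell, Tek did not pass, and Cldn5 and Emcn were at or near 0 counts. No member was higher (0 with edgeR, also at an unadjusted p of 0.05, and 0 with DESeq2, limma-voom and limma-trend). In all 7 that fell, each Ts1Cje library was below each wild-type library, a pattern found in 26.4% of tested genes (in 55.2% the groups did not overlap, whether lower or higher). Tie1 and Icam2 reached the count filter through the wild-type libraries alone, so only a fall could have passed for them. Of the other 6 tested genes, 5 fell. Other cell type markers moved between the groups too. The summed level of 8 mesoderm genes ran from 1386 to 1631 CPM in wild-type and from 602 to 793 CPM in Ts1Cje. Of these 8 genes 3 fell and 5 did not pass, among them Eomes (1074 to 3074 counts in wild-type, 3431 to 4534 in Ts1Cje). That of 7 mural and smooth muscle genes ran from 254.6 to 466.4 and from 38.2 to 45.0 CPM, where 4 fell and 3 did not pass. The part of these markers in the falls of the members was not tested. In such bulk samples, fewer cells of a type and less RNA per cell cannot be told apart.

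**Figure D1:**
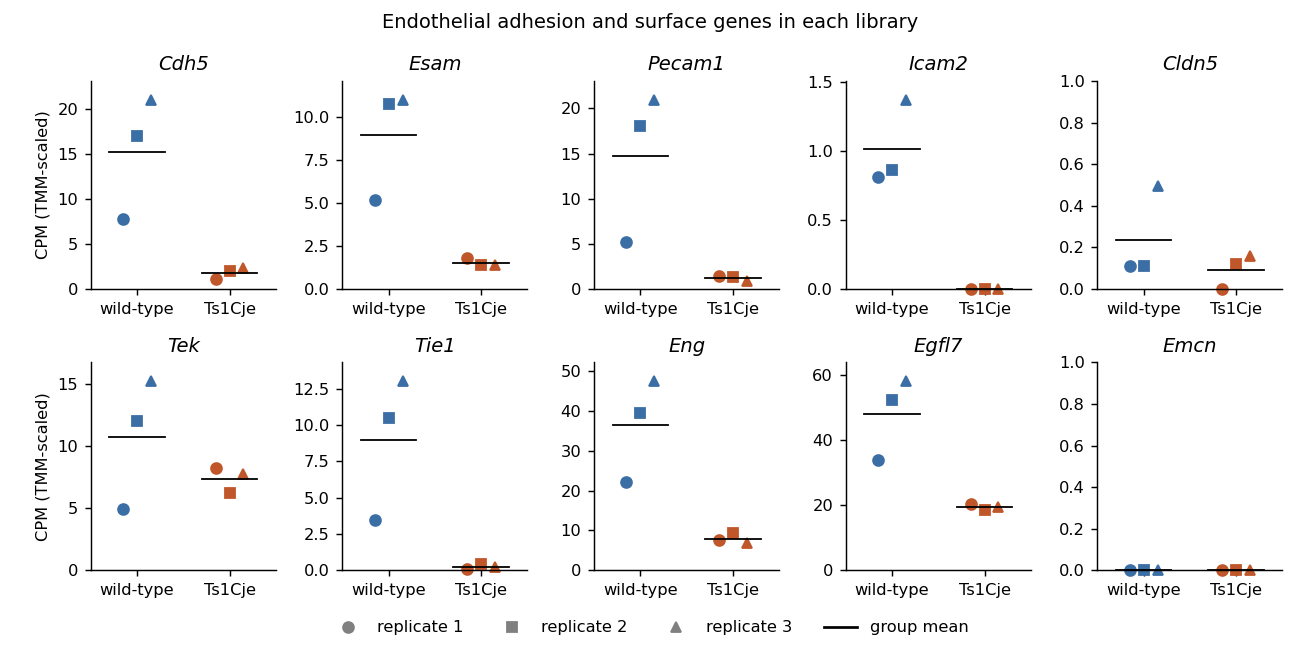
CPM of each of the 10 genes (vertical axes, each from 0 with its own range) in the 3 wild-type and 3 Ts1Cje libraries; symbols mark the replicate and the line is the group mean. In 7 genes all Ts1Cje points lie below all wild-type points, Tek overlaps, Cldn5 is near 0 and Emcn is at 0.

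Cdh5 encodes VE-cadherin, the cadherin that joins endothelial cells at adherens junctions (ENSMUSG00000031871, mm10 chromosome 8, 104101625 to 104144511, plus strand). Its levels were 7.79, 17.0 and 21.0 CPM in wild-type replicates 1, 2 and 3, and 1.096, 2.03 and 2.36 CPM in Ts1Cje replicates 1, 2 and 3. All Ts1Cje libraries were low, and wild-type replicate 1 stood between them and the other wild-type libraries. The group means were 15.3 ± 6.77 and 1.83 ± 0.656 CPM (SD, n = 3 each). The log2 fold change was −3.06 ± 0.43 (SE), or 8.32-fold lower, with an adjusted p of 0.000899 from edgeR's quasi-likelihood test, as for all adjusted p-values below.

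Esam encodes an immunoglobulin-type adhesion molecule of endothelial tight junctions and platelets (ENSMUSG00000001946, chromosome 9, 37528078 to 37538319, plus strand). Wild-type libraries had 5.14, 10.7 and 10.96 CPM and Ts1Cje libraries 1.81, 1.37 and 1.42 CPM. The Ts1Cje values lay close together and below every wild-type value. On the log2 scale Esam changed by −2.54 ± 0.32 (adjusted p = 0.000183).

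Cldn5 encodes claudin-5, the main sealing claudin of endothelial tight junctions, from a single-exon gene on chromosome 16 (ENSMUSG00000041378, 18776847 to 18778262, plus strand). It lies far from Sod1 (start at 90220754), near which the extra segment of Ts1Cje is known to begin, so it is not among the triplicated genes. The wild-type libraries held 2, 2 and 9 counts and the Ts1Cje libraries 0, 2 and 3. These counts were too few for the test. The summed CPM was 2.55 times as high in wild-type, with a 95% exact binomial interval of 0.852 to 9.13 that covers counting error only. The interval includes no difference, so none was detectable at this depth. Without wild-type replicate 3, which holds 9 of the 13 wild-type counts, the ratio was 1.17 (0.232 to 5.44). Without wild-type replicate 1 or 2 it was 3.24, and the interval (1.04 to 11.9) then lay just above 1.

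Pecam1 encodes CD31, an adhesion molecule of endothelial cell contacts (ENSMUSG00000020717, chromosome 11, 106654217 to 106750628, minus strand). The wild-type libraries had 5.19, 18.1 and 20.9 CPM and the Ts1Cje libraries 1.42, 1.37 and 0.892 CPM. Wild-type replicate 1 was again the low one of its group, although above every Ts1Cje library. Pecam1 had a log2 fold change of −3.58 ± 0.59, or 11.98-fold lower, with an adjusted p of 0.00302. Summed CPM of 10 pluripotency and epiblast genes ran from 283.7 to 489.0 in wild-type and from 1564 to 2172 in Ts1Cje. Of the 10, 8 were higher in Ts1Cje and 2 did not pass, where 23.3% of all tested genes were higher. They did not move alike: Fgf5 had 36 to 143 counts in wild-type and 2939 to 3531 in Ts1Cje, and Esrrb 34 to 46 and 33 to 49. The part of cells with such genes in the Pecam1 values was not tested.

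Icam2 encodes a ligand of leukocyte integrins on resting endothelium, and lies on the same chromosome as Pecam1 (ENSMUSG00000001029, chromosome 11, 106377656 to 106388075, minus strand). It had 15, 16 and 25 counts in the wild-type libraries and 0 counts in each Ts1Cje library. Against a floor of 3 counts over the Ts1Cje group, it was at least 18.3-fold lower (adjusted p = 0.000705). On leaving out single libraries this bound ran from 11.8 to 20.1. It was 12.1, 12.6 and 11.8 without Ts1Cje replicate 1, 2 or 3, where the floor is spread over fewer reads.

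Tek and Tie1, both on chromosome 4, encode the 2 endothelial receptor tyrosine kinases of the TIE family, and the 95% intervals of their changes did not overlap. TEK (also called TIE2) binds the angiopoietins, whereas TIE1 pairs with TEK and modulates its signal. Tie1 (ENSMUSG00000033191, 118471191 to 118490061, minus strand) had 3.46, 10.5 and 13.0 CPM in wild-type and 0.1096, 0.417 and 0.262 CPM in Ts1Cje. In raw reads, the Ts1Cje libraries held only 2, 7 and 5 counts against 64, 193 and 237. Tie1 had a log2 fold change of −5.07 ± 0.65, or 33.7-fold lower (adjusted p = 0.000509), with a 95% interval from −6.59 to −3.56.

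Tek (ENSMUSG00000006386, 94739289 to 94874976, plus strand) had 4.92, 12.02 and 15.2 CPM in wild-type and 8.22, 6.20 and 7.71 CPM in Ts1Cje. The groups overlapped: wild-type replicate 1 was below all 3 Ts1Cje libraries, and the other wild-type libraries were above them. The log2 fold change was −0.54 ± 0.37, with a 95% interval from −1.40 to 0.33 (adjusted p = 0.286). The interval excludes a fall as deep as that of Tie1, and it includes no change. This call rests on 1 library and on the filter. Without wild-type replicate 1 the log2 fold change was −0.88 (adjusted p = 0.00217), without wild-type replicate 3 it was −0.20 (0.693), and with all 6 libraries and no filter on low counts it was −0.54 (0.0292). Over all 15 alternatives the adjusted p ran from 0.00217 to 0.693. In 13 of them Tek did not pass, among them DESeq2 (adjusted p = 0.214) and limma-voom (0.443).

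On the authors' TPM scale, which divides by gene length and so allows genes to be compared, Tek was 1.48, 1.20 and 1.22 times as high as Tie1 in wild-type replicates 1, 2 and 3. In the Ts1Cje libraries it was 78.3, 15.5 and 30.7 times as high. Those ratios are imprecise, since Tie1 held only 2, 7 and 5 counts there. The receptor genes were thus close to each other in each wild-type library, replicate 1 included, and far apart in each Ts1Cje library. This ratio was chosen after its values were seen and is given without a test. Tek made up 4.82% to 6.86% of the summed TPM of the 10 genes in wild-type and 12.9% to 16.7% in Ts1Cje.

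**Figure D2:**
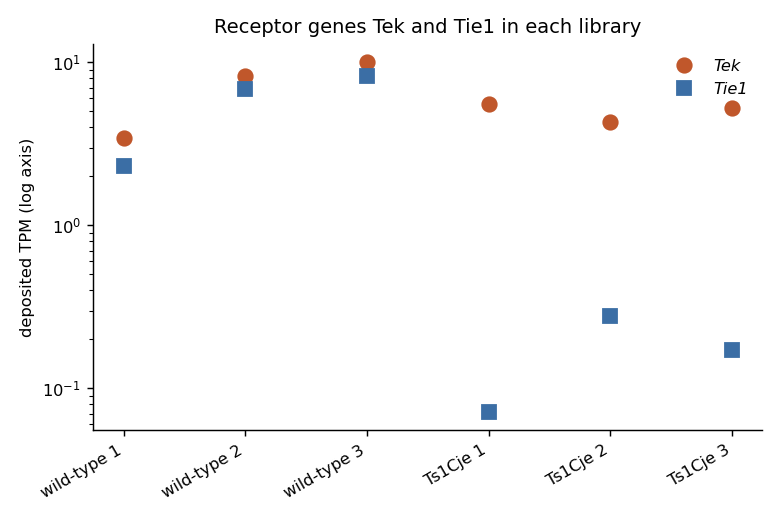
Deposited TPM of Tek (circles) and Tie1 (squares) in each of the 6 libraries, on a log axis. Both symbols lie close together in the wild-type libraries, and in the Ts1Cje libraries Tie1 lies 15.5 to 78.3 times below Tek. Tie1 held only 2, 7 and 5 counts in Ts1Cje replicates 1, 2 and 3.

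Eng encodes endoglin, the co-receptor that presents BMP9, BMP10 and TGF-beta to the receptor kinase ALK1 (ENSMUSG00000026814, chromosome 2, 32646595 to 32682669, plus strand). The wild-type libraries had 22.2, 39.4 and 47.3 CPM and the Ts1Cje libraries 7.51, 9.42 and 6.98 CPM. All Ts1Cje values were below the lowest wild-type value. The log2 fold change was −2.19 ± 0.29, or 4.56-fold lower (adjusted p = 0.000676). The end of Eng shares 61 bp with Fpgs on the other strand, and since the strand of counting is not stated, reads there are uncertain.

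Egfl7 encodes a secreted protein of the endothelial matrix (ENSMUSG00000026921, chromosome 2, 26580014 to 26593120, plus strand). It was the most abundant of the 10 genes, with 33.9, 52.2 and 58.0 CPM in wild-type and 20.4, 18.5 and 19.5 CPM in Ts1Cje. The Ts1Cje libraries agreed closely and none reached the wild-type range. Its log2 fold change was −1.30 ± 0.18, or 2.46-fold lower (adjusted p = 0.000537), the smallest of the 7 falls. The gene shares 64 bp with Agpat2 on the other strand and 6482 bp with Gm20532 on its own strand, a row with 0 counts in all libraries, so how reads there were assigned is uncertain.

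Egfl7 is also the host of miR-126, a microRNA of endothelium, whose 3p arm is shown because the gene that carries it is one that fell; capitals mark its seed, bases 2 to 8.
mmu-miR-126a-3p: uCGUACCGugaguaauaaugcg
This sequence (RefSeq, GRCm38.p6, chromosome 2, 26591402 to 26591423, plus strand) was not itself measured, since libraries were built from poly(A) RNA. The row Mir126a had 0 counts in all libraries, and Mir126b, annotated at the same place on the other strand, held 26 counts in the wild-type libraries together and 1 in the Ts1Cje libraries.

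Emcn encodes endomucin, a sialomucin of venous and capillary endothelium (ENSMUSG00000054690, chromosome 3, 137341067 to 137432185, plus strand). It had 0 counts in each of the 6 libraries. A count of 0 allows up to 0.0543 CPM over the wild-type libraries and 0.0555 CPM over the Ts1Cje libraries (3 counts over each group, counting error only).

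**Figure D3:**
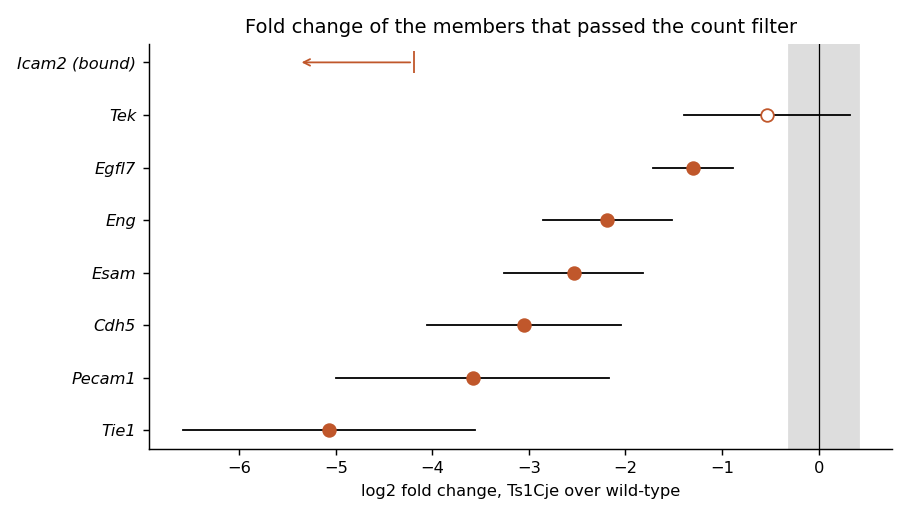
Log2 fold change of Ts1Cje over wild-type for the 8 genes that passed the count filter, with 95% intervals from edgeR's quasi-likelihood test; filled points passed an adjusted p of 0.05, the bar with an arrow is the bound for Icam2, and the grey band spans the middle 50% of all tested genes. Tie1 lies lowest at −5.07 among the genes with a point, and only the interval of Tek reaches 0.

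Ordered by deposited TPM, the wild-type libraries had Egfl7 (42.9 ± 10.4) and Eng (28.7 ± 9.61) on top. Cdh5 (11.6 ± 4.95), Esam (9.97 ± 3.54), Pecam1 (7.54 ± 4.20), Tek (7.25 ± 3.44) and Tie1 (5.81 ± 3.12) followed, then Icam2 (1.71 ± 0.478) and Cldn5 (0.530 ± 0.487; SD, n = 3 each). From Cdh5 to Tie1 each gene's range over the libraries overlapped that of the next, as did those of Egfl7 and Eng. Within each wild-type library the order of these genes was the same, except that Tek was above Pecam1 in replicate 1. In Ts1Cje, Egfl7 (17.6 ± 0.616) and Eng (6.36 ± 1.097) remained on top. Tek came next (5.05 ± 0.661), ahead of Esam (1.72 ± 0.251), Cdh5 (1.41 ± 0.511), Pecam1 (0.637 ± 0.152), Cldn5 (0.211 ± 0.188) and Tie1 (0.174 ± 0.103). There the ranges of Eng and Tek, of Esam and Cdh5, and of Cldn5 and Tie1 overlapped. The summed TPM of the 10 genes was 71.2, 129.4 and 147.4 in wild-type and 33.3, 33.3 and 32.8 in Ts1Cje.

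Wild-type replicate 1 was the lowest of its group in 8 of the 8 tested genes, against 40.1% of all tested genes. Its log2 ratio to the mean of the other wild-type libraries was −1.91 for Pecam1, −1.76 for Tie1, −1.47 for Tek, −1.29 for Cdh5, −1.08 for Esam, −0.97 for Eng, −0.70 for Egfl7 and −0.46 for Icam2. The median of the 8 was −1.18, where all tested genes had a median of −0.01 and quartiles of −0.21 and 0.20. A ratio below −1 was found in 5 of the 8 genes and in 3.18% of tested genes. Wild-type replicate 1 also held more of the pluripotency and epiblast genes than replicates 2 and 3 (489.0 CPM summed, against 283.9 and 283.7) and less of the mural and smooth muscle genes (254.6 against 416.4 and 466.4). The part of such genes in these values was not tested. Without this library the 8 tested genes were all lower in Ts1Cje, with a median log2 fold change of −3.10 in place of −2.80.

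Wild-type replicate 1 was also the lowest of its group in 17 of 22 other tested endothelial surface genes and 13 of 18 endothelial transcription factors. Kdr, the VEGF receptor of blood and vessel precursors, was lowest there by a small margin, with 420.8, 433.5 and 471.7 CPM in the wild-type libraries. Etv2, the ETS factor that starts the lineage, was instead highest in wild-type replicate 1 (57.4 CPM, against 40.9 and 34.2). So were Foxc2, Foxc1 and Lmo2, with log2 ratios to the mean of the other wild-type libraries of 0.80, 0.34 and 0.16. The later ETS factors were lowest in wild-type replicate 1: Erg had 3.68, 7.36 and 8.44 CPM, and Fli1 12.5, 22.4 and 18.5 CPM. Kdr, Etv2, Erg and Fli1 all fell in Ts1Cje, Erg to 0.485 ± 0.0968 and Fli1 to 0.822 ± 0.294 CPM. Erg lies on chromosome 16, whose distal part has an extra copy in Ts1Cje, and its place relative to Sod1 was not examined. Per unit of Kdr, on the TPM scale, Cdh5 stood at 0.0398, 0.0842 and 0.0956 in wild-type and at 0.0355, 0.0402 and 0.137 in Ts1Cje. This ratio, chosen after its values were seen, overlapped between the groups, with the highest value in Ts1Cje replicate 3.

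**Figure D4:**
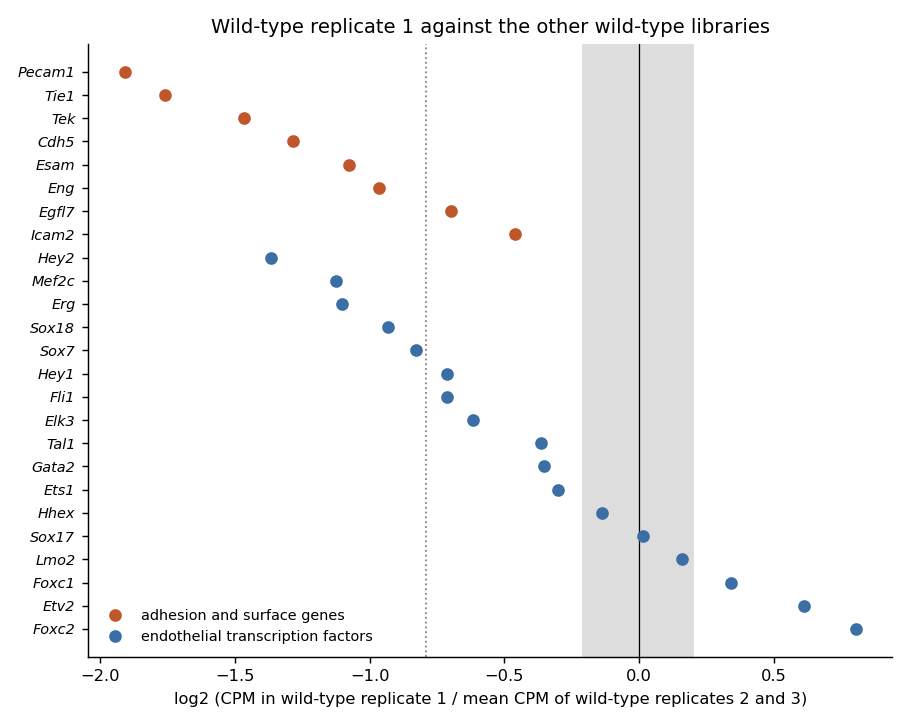
Log2 ratio of CPM in wild-type replicate 1 to the mean of wild-type replicates 2 and 3, for the 8 tested adhesion and surface genes and for endothelial transcription factors with a wild-type mean of at least 1 CPM; the grey band spans the middle 50% of all tested genes and the dotted line marks their 5th percentile. The adhesion and surface genes lie between −1.91 and −0.46, and Foxc2, Etv2, Foxc1, Lmo2 and Sox17 lie above 0.

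The 250 bases before annotated start sites are shown for 2 genes that fell, Eng and Egfl7, and for Tek, which did not pass, because these genes share a cell type but not a call. Capitals mark matches to AGGAAG on either strand (CTTCCT where reversed), a core that ETS factors can bind. The sequences are RefSeq's for GRCm38.p6, the assembly behind mm10, read 5′ to 3′ along the gene.
Eng: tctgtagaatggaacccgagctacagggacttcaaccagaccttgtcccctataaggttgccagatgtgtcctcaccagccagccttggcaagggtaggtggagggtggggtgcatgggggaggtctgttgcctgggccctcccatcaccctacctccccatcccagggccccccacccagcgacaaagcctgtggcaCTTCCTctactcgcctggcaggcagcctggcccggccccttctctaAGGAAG
Egfl7: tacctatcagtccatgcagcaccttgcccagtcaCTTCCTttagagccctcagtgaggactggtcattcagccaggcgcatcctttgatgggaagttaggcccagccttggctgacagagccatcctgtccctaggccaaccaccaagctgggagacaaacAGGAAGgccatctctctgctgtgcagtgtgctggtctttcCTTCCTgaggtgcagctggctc
Tek: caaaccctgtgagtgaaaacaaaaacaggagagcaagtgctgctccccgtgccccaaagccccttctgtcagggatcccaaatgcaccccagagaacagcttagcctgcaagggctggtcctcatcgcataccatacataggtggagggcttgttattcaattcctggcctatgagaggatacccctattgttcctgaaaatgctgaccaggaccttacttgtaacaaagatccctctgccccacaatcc
The windows are chr2:32646345-32646594 on the plus strand for Eng, chr2:26580833-26581055 on the plus strand for Egfl7, where 27 bases of an annotated first exon were left out, and chr4:94739039-94739288 on the plus strand for Tek. The window of Tie1 is not printed, since 212 of its bases are first exon in GENCODE M21. AGGAAG was found 1 time before Tie1, 2 times before Eng, 3 times before this start of Egfl7 and 0 times before Tek. Other starts of Egfl7 had 1 and 0 matches, Emcn had 2 and Cldn5 had 0. Of all 32851 such windows, 29.5% hold it. The related core CCGGAA (12% of windows) and the GATA core AGATAA (9.99%) were in none of the 8 windows of these genes, and the E-box CAGCTG (13%) was in 1, that of Egfl7 shown. A match is a run of letters and not a binding site, and its absence says nothing about a factor. RefSeq windows were matched for 6 of the 10 genes; Cdh5, Pecam1, Esam and Icam2 were not matched.

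The genes are spread over 7 chromosomes, and the genes around them had medians near 0. Tested genes within 1 Mb of a member had median log2 fold changes from −0.13 (Cdh5, 12 genes) to 0.16 (Esam, 22 genes). Around Tie1, 5 of 39 neighbours were lower and 10 higher, and around Pecam1, 9 of 38 were lower and 6 higher. Around Eng, 15 of 49 were lower and 10 higher. Among all tested genes 20.5% were lower and 23.3% higher. No member lies on chromosome 16 beyond Sod1.

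Partner genes were taken as lists of ligands, signalling partners and junction proteins, whose counts stand beside 20.5% lower and 23.3% higher among all tested genes. The partners of the TIE receptors went both ways: of 12 listed genes 10 were tested, 3 fell and 5 rose, with a median log2 fold change of 0.38. The angiopoietin gene Angpt1, the activating ligand, had too few reads for the test, with 9 counts in the wild-type libraries and 12 in the Ts1Cje libraries. Angpt2, its context-dependent antagonist, stood at 0.816 ± 0.427 and 0.801 ± 0.318 CPM (log2 fold change −0.02 ± 0.51, adjusted p = 0.984), with a sign that changed between alternatives. Ptprb, the VE-PTP phosphatase that acts on TEK and VE-cadherin, fell (3.91 ± 0.811 to 1.71 ± 0.594 CPM, −1.19 ± 0.31, adjusted p = 0.0104). Svep1, a matrix protein gene of vessel and lymphatic development, fell from 13.7 ± 3.90 to 1.49 ± 0.234 CPM. The genes Foxo1 (1.75 ± 0.13), a transcription factor restrained by TEK signalling through AKT, Tnip2 (1.44 ± 0.20), a TEK-binding inhibitor of NF-kappa B, and Pik3r1 (0.71 ± 0.09), a subunit of the PI3 kinase that TEK recruits, rose.

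The list of VE-cadherin partners held its catenins and linkers, the RAP1 and CCM proteins that act at its junctions, and the cadherin genes Cdh1 and Cdh2. Of 16 tested, 5 fell and 5 rose, with a median of −0.10. The linker genes Ctnnb1 (0.21 ± 0.05), Ctnna1 (0.27 ± 0.06) and Vcl (0.35 ± 0.07) rose, Afdn fell (−0.30 ± 0.09), and Ctnnd1 did not pass (−0.13 ± 0.10). Jup, which encodes plakoglobin, also rose (54.3 ± 10.4 to 149.2 ± 13.9 CPM, 1.46 ± 0.13). Among those that fell were Rasip1, a RAP1 effector of lumen formation (27.1 ± 8.75 to 6.91 ± 0.311 CPM, −1.97 ± 0.24), Heg1, a receptor that anchors the CCM complex (−1.36 ± 0.22), and Rap1a, a small GTPase of junction adhesion (−0.64 ± 0.08). The count of falls was 3 without wild-type replicate 2 or Ts1Cje replicate 1. The epithelial cadherin gene Cdh1 was 4.02 and 3.26 times as high as Cdh5 in TPM in wild-type replicates 2 and 3, 19.4 times in replicate 1, and 254.7 to 591.8 times in Ts1Cje.

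Tight junction genes rose more often than they fell, with 8 of 15 tested higher, 4 lower and a median of 0.20. Those with the smallest adjusted p were Ocln, for occludin (6.43 ± 0.384 to 45.6 ± 7.29 CPM, 2.82 ± 0.14), the scaffold gene Tjp3 (2.53 ± 0.17), F11r, for JAM-A (1.602 ± 0.11), and the polarity gene Patj (0.996 ± 0.07). Summed CPM of 10 endoderm and epithelium markers ran from 367.1 to 590.7 in wild-type and from 1937 to 2315 in Ts1Cje. The part of such cells in the rise of tight junction genes was not tested.

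Most genes of the endoglin pathway fell, as Eng did. Of 16 listed genes 14 were tested, and 11 fell and 2 rose, with a median of −0.87. Acvrl1, which encodes ALK1, the kinase partner of endoglin, fell from 11.98 ± 2.51 to 1.12 ± 0.247 CPM (−3.42 ± 0.25, adjusted p = 7.48e-06). On the TPM scale Eng was 2.53, 3.32 and 3.51 times as high as Acvrl1 in wild-type and 9.02, 7.24 and 6.67 times in Ts1Cje. The ligand gene Tgfb1 fell from 97.9 ± 21.2 to 14.0 ± 1.95 CPM (−2.81 ± 0.18), and Id2, a target gene of BMP signalling, by 1.40 on the log2 scale (SE 0.13). The ligand genes Gdf2 (BMP9) and Bmp10 were near 0, with 2 and 0 counts summed in wild-type and 5 and 2 in Ts1Cje. Tgfbr3, for the related co-receptor betaglycan, rose from 25.3 ± 1.14 to 101.1 ± 12.02 CPM (2.00 ± 0.10, adjusted p = 1.16e-06).

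Of the 14 listed partners of ICAM2 and PECAM1, 10 were tested, 4 fell and 4 rose, with a median of 0.50. The membrane linkers that bind the tail of ICAM2 differed: Msn, for moesin, fell from 260.7 ± 14.7 to 130.6 ± 16.3 CPM (−0.998 ± 0.09), and Ezr, for ezrin, rose from 66.7 ± 18.7 to 256.8 ± 28.7 CPM (1.94 ± 0.20). The phosphatases that bind PECAM1 differed as well, with Ptpn6 higher (1.28 ± 0.13) and Ptpn11 lower (−0.28 ± 0.05). The count of falls was 2 without wild-type replicate 2 or Ts1Cje replicate 1 or 2.

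Among 30 other endothelial surface genes, 22 were tested, 11 fell and 3 rose, with a median of −0.61. Flt4, the VEGF-C receptor gene, fell (38.6 ± 3.89 to 14.9 ± 1.20 CPM, −1.38 ± 0.12), as did S1pr1, a sphingosine phosphate receptor gene (3.35 ± 0.896 to 0.385 ± 0.0763 CPM, −3.09 ± 0.36). S1pr1, with 185 counts summed in wild-type and 21 in Ts1Cje, reached the count filter through the wild-type libraries alone, so only a fall could have passed. Flt1 (1.51 ± 0.07) and Thbd, for thrombomodulin (0.762 ± 0.255 to 5.996 ± 1.73 CPM, 2.97 ± 0.34), rose. Esm1 and Gpihbp1 had 0 counts in all libraries. The count of falls was 7 without wild-type replicate 3. Of 18 endothelial transcription factors, 14 fell and 2 rose, with a median of −2.43. Among the 14, Sox18 (388 counts summed in wild-type, 2 in Ts1Cje) also reached the count filter through the wild-type libraries alone. Erg (358 and 26) reached it only with their help, since 0.438 and 0.420 CPM in Ts1Cje replicates 1 and 3 were too low. The same held for Dll4 and Mmrn2 among the surface genes that fell, and for Tgfb3 and Itgb3 in the endoglin and ICAM lists. Conversely, Icam4 and Grb14, which rose, reached it only with the help of the Ts1Cje libraries. Fli1 (−4.44 ± 0.31), Elk3 (−2.35 ± 0.19) and Ets1 (−1.72 ± 0.12), all ETS factors, fell, and Sox17, a factor of both endoderm and arterial endothelium, rose (3.18 ± 0.12).

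**Figure D5:**
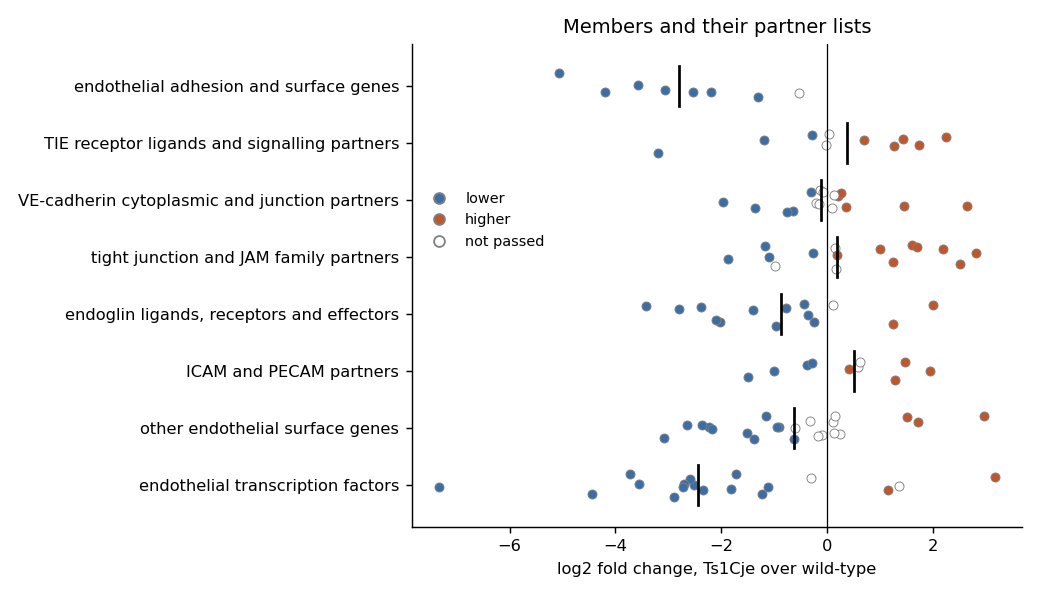
Log2 fold change of Ts1Cje over wild-type for every tested gene of the adhesion and surface list and of 7 partner lists; blue points fell, orange points rose and open points did not pass (edgeR's quasi-likelihood test, adjusted p of 0.05), and the black bar is the list's median. Icam2 is drawn at its bound, the leftmost point in the last row is the fitted value of a gene with 2 counts in Ts1Cje, and vertical scatter within a row has no meaning. The medians are −2.80 for the adhesion and surface genes and −2.43 for transcription factors, and they lie between −0.87 and 0.50 for the other lists.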

How the data were processed

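Per the labels' protocols, RNA of 6 samples was made into directional poly(A) libraries. The authors deposited a table of unnormalized gene counts and a table of TPM values for the same genes. The submitters' processing notes name FastQC 0.11.7, Trimmomatic 0.38, HISAT2 2.1.0, featureCounts 1.6.3 and mm10; the counting strand is not stated. Member coordinates were identical in GENCODE M21.

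The labels gave the groups and the replicate numbers. Counts were fitted in R 4.3.3 with edgeR 4.0.16: filterByExpr (minimum count 10, total 15; 17315 genes kept), TMM scaling, robust quasi-likelihood test without covariates, and Benjamini-Hochberg adjustment over all genes kept (threshold 0.05). Each SE is approximate, taken from the fold change and its F statistic. Levels are CPM, mean ± SD (n = 3 per group). Genes with few reads were compared by summed counts, with 95% exact binomial intervals or a floor of 3 counts; reads carry no molecular identifiers, so these cover counting error only. Listed Pals1 is named Mpp5 in the files.

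Named genes were the 10 members, up to 4 called genes per partner list by smallest adjusted p, and Angpt1, Angpt2, Gdf2, Bmp10, Tgfb1, Acvrl1, Ptprb, Kdr, Etv2, Fli1 and Erg. Other genes named, such as the cell type markers, the VE-cadherin linkers, Cdh1 and the Mir126 rows, were chosen after their values were seen. Members and lists were chosen with earlier results of these data known. Alternatives were DESeq2 1.42.0, limma 3.58.1 (voom on counts, trend on log2 TPM), other scalings and filters, a replicate block and leaving out each library.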

Additional observations from a re-analysis of the deposited data

How the results depend on the processing

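The 7 calls of lower expression among the members held their direction and threshold under every alternative that tested them. Icam2 was not tested with a minimum mean log2 CPM of 1, where 6 members were lower. With no filter, and without wild-type replicate 1, Tek passed as well and 8 were lower. On leaving out single libraries, falls among the partners of VE-cadherin ranged from 3 to 4 (5 with all libraries), among ICAM and PECAM partners from 2 to 4, and among other endothelial surface genes from 7 to 11. The bound for Icam2 ranged from 11.8 to 20.1, and the Cldn5 ratio from 1.17 to 4.13. Angpt2 changed sign with limma-voom (0.10), limma-trend on log2(TPM + 1) (0.0043) and log2(TPM + 0.1) (0.062), and the replicate block (0.0095), and ranged from −0.40 to 0.25 on leaving out single libraries; the cause was not tested. No scaling moved the median of all tested genes by 0.1.

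Same-numbered samples of the genotypes deviated together for replicate 1 (correlation across genes 0.24) and replicate 3 (0.23) but hardly for replicate 2 (0.069), so the numbers were not taken as pairs. Each sample did correlate best with its own number. With the replicate block, 8326 genes passed in place of 7579, and 7 members were lower, as without it. Depth limits Cldn5, Emcn, Icam2 and the Ts1Cje levels of Tie1.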
